A study of Mus musculus with 6 samples.

Results

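The genes described here are 35 genes of cholesterol and fatty acid metabolism, taken by symbol from the 55401 genes in the count tables of mouse CD4+ T cells. They comprise 18 enzymes that build cholesterol, 10 enzymes that make, lengthen or desaturate fatty acids, 4 genes that control or carry sterols, and 3 genes of the liver X receptor (LXR) and cholesterol efflux. All 35 had a line in the tables, and 34 had enough reads to be tested. RNA sequencing compared 3 libraries from control mice, labelled WT, with 3 libraries from Satb1 conditional knockout mice, whose genotype is given as Satb1 flox/flox with CD4-Cre (Satb1 cKO below). In both groups naive CD4+ T cells were taken from spleen by magnetic beads and activated through CD3 and CD28 for 24 h. The Cre transgene is driven by Cd4 regulatory sequences, which act from the thymus onwards and also in cells that later become CD8+. The sources used here do not give the strain, sex or age of the mice, or say whether controls carried floxed alleles or Cre. They also do not tie each library to a mouse of its own, so the p-values rest on the spread among these 6 libraries, and this spread may be technical.

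Activated T cells enlarge their membranes before they divide, and they switch on sterol and fatty acid synthesis to do so. When sterols in the endoplasmic reticulum run low, SREBP proteins (encoded by Srebf1 and Srebf2) are released from INSIG retention, cut in the Golgi, and enter the nucleus to activate synthesis genes. When oxysterols accumulate, LXR instead activates the transporters ABCA1 and ABCG1, which move cholesterol out of the cell. The deleted gene encodes a chromatin organiser of the T lineage. The question followed here is how the SREBP-driven synthesis genes and the LXR-driven efflux genes differed between Satb1 cKO and control cells.

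Of the 34 tested genes, 17 were lower and 2 were higher in Satb1 cKO, and 15 did not pass the test (edgeR's quasi-likelihood test, Benjamini-Hochberg adjusted p under 0.05 over all 13364 tested genes). Over all tested genes 20.7% were called lower and 21.6% higher, 42.3% in either direction. The median log2 fold change was -0.16 over the 34 genes and 0.003 over all tested genes. Both sides of the sterol balance were lower: 9 of 17 tested cholesterol synthesis genes fell and 1 rose, and both efflux transporters fell. The efflux side is 2 genes, and the call of Abca1 was lost in DESeq2 and without some single libraries. On the synthesis side, Acat2, Idi1, Fdft1 and Sc5d also lost their calls without some single libraries. Of 11 tested further LXR targets and partners, 3 rose and 3 fell. The differences were small, with a median absolute log2 fold change of 0.36 among the 19 called genes and of 0.40 among all called genes. None of the 19 reached a 2-fold difference, against 1092 of the 5651 called genes among all tested.

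The largest falls were those of Elovl6, Abcg1, Abca1, Dhcr7, Stard4 and Cyp51, and the 2 rises were those of Hsd17b7 and Elovl1. Against a fold change of 1.2 (edgeR's glmTreat), 5 genes remained lower: Cyp51, Dhcr7, Stard4, Elovl6 and Abcg1. In that test 0 of the 34 genes were higher, with 1 higher and 9 lower at an unadjusted p under 0.05. Over all tested genes it called 8.39% lower and 9.14% higher.

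**Figure D1:**
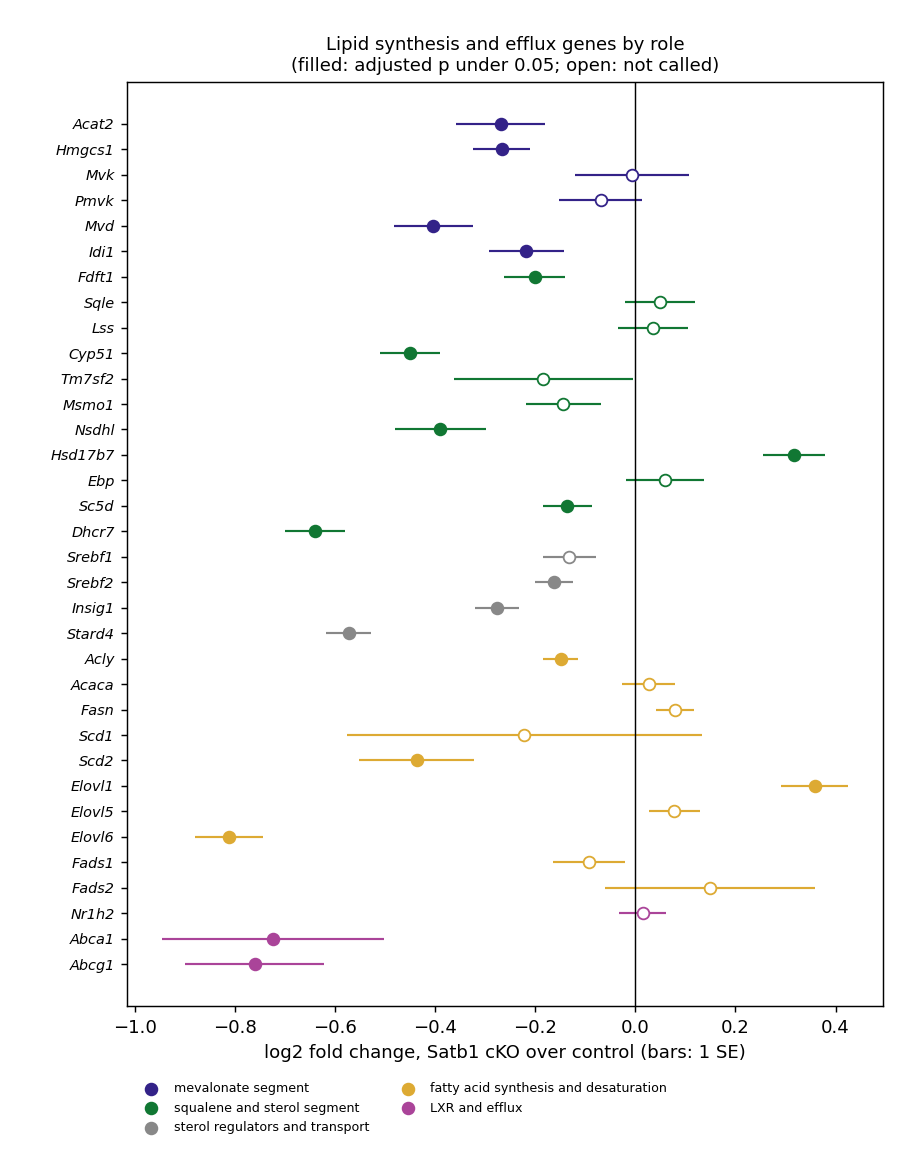
Log2 fold change of Satb1 cKO over control for the 34 tested genes, ordered by role from the first step of cholesterol synthesis to efflux. Points are the fitted values, bars 1 SE, filled points passed the test. Most filled points lie left of 0, down to -0.81 for Elovl6, and 2 lie to the right, Hsd17b7 at 0.32 and Elovl1 at 0.36.

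The promoters below are the 4 in which a sterol regulatory element or a loosened LXR element was found. Each line is the 250 bases before a RefSeq transcription start (GRCm38.p6), 5′ to 3′ on the gene's strand. Capitals mark matches on either strand to the sterol regulatory element TCACNCCAC, to a loosened LXR element (GGTNA, any 5 bases, then GGTCA), or to the CCAAT box, where the SREBP partner NF-Y binds. The windows are chr13:119690101-119690350 on the plus strand for Hmgcs1, and chr4:53159896-53160145 for Abca1, chr11:60210472-60210721 for Srebf1 and chr11:120824548-120824797 for Fasn, these 3 on the minus strand. None of the 4 overlaps an exon in GENCODE M21.
Hmgcs1: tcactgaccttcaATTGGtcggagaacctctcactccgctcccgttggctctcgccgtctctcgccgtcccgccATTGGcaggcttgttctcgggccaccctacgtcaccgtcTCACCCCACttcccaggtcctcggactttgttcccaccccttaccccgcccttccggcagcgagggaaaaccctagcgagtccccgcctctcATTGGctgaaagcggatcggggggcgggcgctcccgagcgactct
Abca1: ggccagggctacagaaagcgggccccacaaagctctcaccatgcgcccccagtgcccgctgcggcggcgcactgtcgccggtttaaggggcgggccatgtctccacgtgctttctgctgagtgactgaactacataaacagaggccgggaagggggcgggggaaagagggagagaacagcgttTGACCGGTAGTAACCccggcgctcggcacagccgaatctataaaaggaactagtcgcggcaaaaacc
Srebf1: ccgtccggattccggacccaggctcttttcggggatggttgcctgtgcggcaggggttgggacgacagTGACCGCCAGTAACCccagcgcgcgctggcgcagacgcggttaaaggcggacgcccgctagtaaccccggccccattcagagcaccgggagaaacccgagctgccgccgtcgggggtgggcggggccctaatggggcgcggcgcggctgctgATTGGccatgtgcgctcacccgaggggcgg
Fasn: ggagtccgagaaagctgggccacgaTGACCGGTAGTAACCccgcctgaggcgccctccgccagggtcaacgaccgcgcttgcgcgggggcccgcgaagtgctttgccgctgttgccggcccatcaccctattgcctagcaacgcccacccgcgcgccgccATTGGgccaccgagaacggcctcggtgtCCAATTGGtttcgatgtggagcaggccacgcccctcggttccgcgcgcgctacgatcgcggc

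In Hmgcs1 the sterol regulatory element lies 137 to 129 bases before the start, between CCAAT boxes read on the opposite strand. The LXR element lies 67 to 53 bases before the start in Abca1 and 225 to 211 bases before it in Fasn, with the same 15 letters in both. In Srebf1 it lies 182 to 168 bases before the most downstream of the 3 starts listed. RefSeq windows were found for 27 of the 35 genes (33 windows, since some genes have several starts). Abcg1, Fads1, Fdft1, Fdps, Scd1, Scd2, Sqle and Stard4 had none. The sterol regulatory element was in 1 of the 33 windows, against 1.05% of all 32851 windows of this length. The loosened LXR element was in 3, against 0.177%, and the CCAAT box in 21, or 63.6%, against 33.8% of all windows. All 3 LXR element matches read GGTTA at the loosened letter, so their number rests on how the element was loosened. The E-box CACGTG, another SREBP binding sequence, was in 6 of the 33 windows and in 6.02% of all. These matches are letters in a window and no measure of binding. The Abca1 and Fasn genes share the LXR element letters. Abca1 was called lower and Fasn did not pass the test, as given below. The part of these letters in either result was not tested.

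Satb1 itself, the targeted gene, stood at 712, 851 and 727 CPM (reads scaled to a common library size) in control and 426, 546 and 462 CPM in Satb1 cKO (log2 fold change -0.68, adjusted p = 9.7e-05), counted over the whole gene, so remaining reads do not measure the deletion. Libraries held 14895389 to 20266626 reads on genes. Of 12 CD4 T cell markers (T cell receptor and CD3 chains, Cd4, Lck, Cd5, Thy1, Cd2), all were present, 9 fell and Cd5 rose. Cd4 itself fell most among them (35606 reads in control and 11086 in Satb1 cKO, log2 fold change -1.75), and their summed level ranged from 3442 to 3552 CPM in control and from 2667 to 2771 CPM in Satb1 cKO. Markers of other cells were higher in Satb1 cKO. Of 18 myeloid markers 12 of 13 tested rose and Ms4a6c fell, with sums of 55.3 to 64.9 CPM in control and 109.5 to 241 CPM in Satb1 cKO. C1qa, C1qb and C1qc had 1, 1 and 2 reads over the control libraries and 26, 28 and 26 over the Satb1 cKO libraries. They had too few reads to be tested. Of 8 B cell markers 2 of 6 tested rose, with sums of 4.82 to 10.1 and 11.4 to 14.5 CPM, and of 9 red cell markers all 7 tested rose, with sums of 25.5 to 32.0 and 310.3 to 1862 CPM. In bulk samples fewer cells of a type and less RNA per cell cannot be told apart. The part of these cells in the differences reported here was not tested. Macrophages also express Abca1 and Abcg1, and bulk counts do not assign the reads of these genes to a cell type.

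The first segment of the pathway, from acetyl-CoA to farnesyl diphosphate, was lower at 4 of its 6 tested genes and higher at 0. Among all tested genes, 20.7% were called lower and 21.6% higher. Acat2 (chromosome 17, 12942890 to 12960747), which joins acetyl-CoA units, stood at 26.5, 30.4 and 28.1 CPM in control replicates 1 to 3. In Satb1 cKO replicates 1 to 3 it stood at 24.9, 24.8 and 20.6 CPM, all below the controls (log2 fold change -0.27, SE 0.089, adjusted p = 0.0303). Hmgcs1 (chromosome 13, 119690379 to 119708260), the HMG-CoA synthase of the cytosol and a standard SREBP target, stood at 116, 104 and 99.9 CPM in control and 90.1, 90.5 and 85.9 CPM in Satb1 cKO. The groups did not overlap, and the level in Satb1 cKO was 83.2% of control (log2 fold change -0.27, SE 0.058, adjusted p = 0.0032).

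Mvd (chromosome 8, 122433601 to 122443422), which decarboxylates mevalonate diphosphate, fell most in this segment. It stood at 28.3, 28.6 and 25.6 CPM in control and 20.4, 22.4 and 19.6 CPM in Satb1 cKO, a level of 75.6% of control (log2 fold change -0.40, SE 0.079, adjusted p = 0.0018). Idi1, the isomerase that follows, stood at 85.6, 74.0 and 69.0 CPM in control and 61.9, 67.1 and 68.2 CPM in Satb1 cKO. The highest Satb1 cKO library lay just below the lowest control (log2 fold change -0.22, SE 0.075, adjusted p = 0.0366). The 2 kinases between Hmgcs1 and Mvd did not pass the test: Mvk had a mean of 17.6 ± 2.73 CPM in control and 17.4 ± 1.03 in Satb1 cKO, and Pmvk 21.1 ± 1.56 and 20.1 ± 0.970 (SD, n = 3). Their 95% intervals ran from -0.26 to 0.24 for Mvk and from -0.25 to 0.11 for Pmvk, so falls as large as that of Acat2 lay just outside both.

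The calls of Acat2 and Idi1 depended on single libraries. Acat2 lost its call without control replicate 2 (adjusted p = 0.103), control replicate 3 (0.0676) or Satb1 cKO replicate 3 (0.109). Idi1 lost it without control replicate 1 (log2 fold change -0.13, adjusted p = 0.0839) and without Satb1 cKO replicate 1, 2 or 3 (adjusted p = 0.128, 0.0539 and 0.0509).

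Fdps, the farnesyl diphosphate synthase, could not be assessed. It had 28 reads over the control libraries and 18 over the Satb1 cKO libraries, too few to be tested. Of its merged exon bases, 26.7% are shared with Gm43738, a gene model annotated on the same strand, and reads that touch both are counted for neither in HTSeq's usual mode. The part that this counting had in the low number was not tested.

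In the second segment, from squalene to cholesterol, 5 of 11 genes fell, 1 rose and 5 did not pass the test. The shares called lower and higher were 45.5% and 9.09%, against 20.7% and 21.6% of all tested genes. Fdft1, the squalene synthase, stood at 48.2, 49.9 and 49.7 CPM in control and 46.1, 41.4 and 40.9 CPM in Satb1 cKO (log2 fold change -0.20, SE 0.060, adjusted p = 0.0189). All 3 controls were above all 3 Satb1 cKO libraries, but the call was lost without control replicate 3, Satb1 cKO replicate 2 or Satb1 cKO replicate 3 (adjusted p = 0.0539, 0.0629 and 0.0772). Fdft1 also shares 18.3% of its exon bases with Ctsb on the opposite strand, and where counting ignores strand those reads are not counted for either gene.

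Sqle and Lss, which oxidise squalene and close it into lanosterol, were at control levels within their error. Sqle, a gene often used as a readout of SREBP activity, had a mean of 84.4 ± 5.29 CPM in control and 87.3 ± 8.41 CPM in Satb1 cKO (SD, n = 3; 95% interval of the log2 fold change -0.11 to 0.20). Lss had 46.2 ± 4.53 and 47.5 ± 0.977 CPM (95% interval -0.12 to 0.19). In both genes the libraries of the 2 groups overlapped, and falls of the size seen for Hmgcs1 lie outside both intervals.

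Cyp51 (chromosome 5, 4081145 to 4104746), which demethylates lanosterol, stood at 205, 177 and 179 CPM in control. It stood at 143, 132 and 135 CPM in Satb1 cKO, with a wide gap between the groups (73.3% of control, log2 fold change -0.45, SE 0.059, adjusted p = 0.000119). Nsdhl (X chromosome, 72918557 to 72958514), the sterol dehydrogenase that takes part in removing methyl groups, stood at 19.5, 19.9 and 21.1 CPM in control and 15.3, 13.96 and 17.0 CPM in Satb1 cKO. All 3 Satb1 cKO libraries were below the controls (log2 fold change -0.39, SE 0.091, adjusted p = 0.00518).

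Hsd17b7 (chromosome 1, 169949535 to 169969241), the ketosteroid reductase that acts with NSDHL at the same stage, went the other way. It stood at 32.6, 32.1 and 33.2 CPM in control and 40.6, 38.3 and 43.2 CPM in Satb1 cKO, 125% of control (log2 fold change 0.32, SE 0.062, adjusted p = 0.00178). Of the 17 tested cholesterol synthesis genes it was the only one that rose.

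The last step of the pathway showed the largest fall among them. Dhcr7 (chromosome 7, 143823145 to 143848410), which reduces 7-dehydrocholesterol to cholesterol, stood at 47.8, 48.4 and 44.7 CPM in control and 31.3, 29.0 and 30.1 CPM in Satb1 cKO. The groups lay far apart compared with the spread within them (64.2% of control, log2 fold change -0.64, SE 0.060, adjusted p = 9.88e-06). Sc5d, the desaturase just before it, stood at 57.5, 56.1 and 55.4 CPM in control and 50.5, 51.6 and 51.9 CPM in Satb1 cKO. Its fall was small (log2 fold change -0.14, SE 0.048, adjusted p = 0.0414) and lost its call without any 1 of the 6 libraries, with adjusted p from 0.0649 to 0.101.

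Of the other genes of this segment, Tm7sf2, a sterol reductase, had a mean of 4.602 ± 0.845 CPM in control and 4.02 ± 0.242 in Satb1 cKO, and Ebp, a sterol isomerase, 31.0 ± 3.005 and 32.2 ± 1.26 CPM (SD, n = 3). Neither passed the test. Msmo1, a methylsterol oxidase, had 51.1 ± 5.19 and 46.3 ± 2.46 CPM and did not pass it (adjusted p = 0.148), but did without control replicate 2 (log2 fold change -0.23, adjusted p = 0.0226).

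The ratio of Hsd17b7 to Dhcr7 reads within a library, chosen after their values were seen, was 0.682, 0.663 and 0.745 in control and 1.30, 1.32 and 1.43 in Satb1 cKO. An exact two-sided permutation test gave p = 0.1, the smallest that 3 against 3 libraries allow. Neither gene overlapped between the groups and they went opposite ways, so the choice of pair fixed this p and it adds no support. Summed over the 18 cholesterol synthesis genes, levels were 929, 876 and 858 CPM in control and 794, 759 and 761 CPM in Satb1 cKO. The Satb1 cKO mean was 86.9% of the control mean, so the sum moved less than its most affected members.

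**Figure D2:**
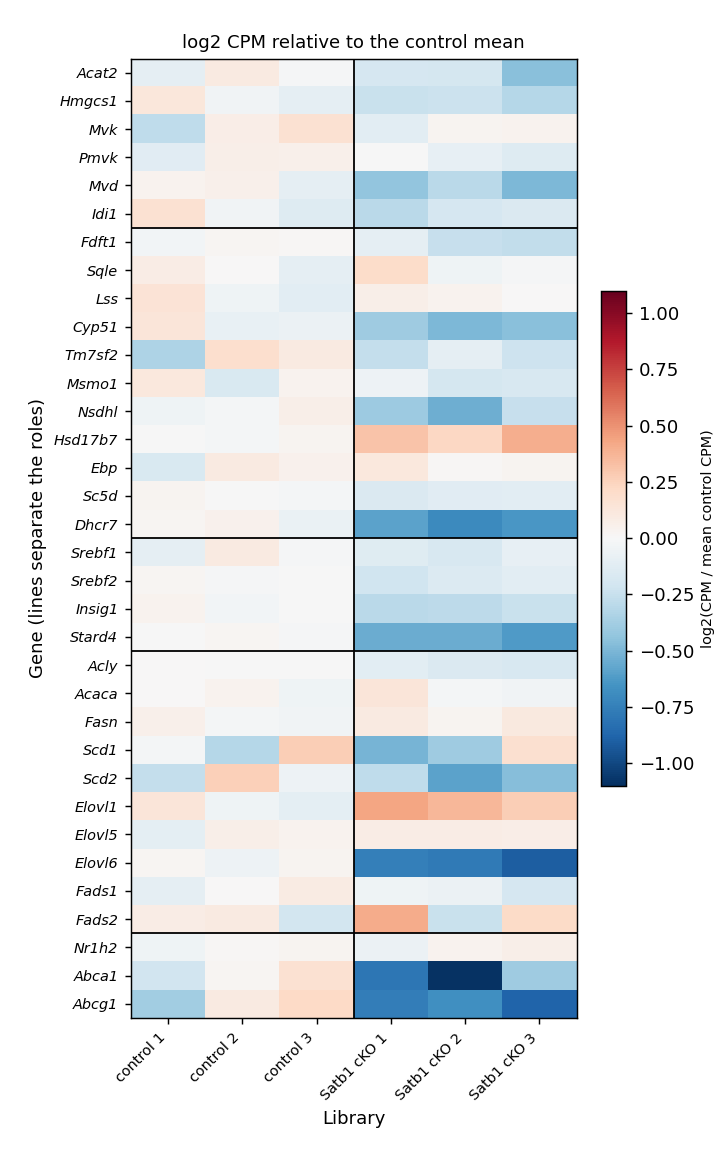
Log2 ratio of each library's CPM to the control mean (colour, limits -1.1 to 1.1) for the 34 tested genes in rows and the 6 libraries in columns. Dhcr7, Stard4, Elovl6, Abca1 and Abcg1 are blue in all 3 Satb1 cKO libraries, Hsd17b7 and Elovl1 are red in all 3, and Sqle, Lss, Acaca and Nr1h2 stay pale.

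Among the genes that control or carry sterols, 3 of 4 fell and 0 rose. These are only 4 genes, and 20.7% of all tested genes were called lower and 21.6% higher. Srebf2 (chromosome 15, 82147181 to 82205379), whose product drives cholesterol synthesis genes and is itself an SREBP target, stood at 502, 491 and 494 CPM in control. It stood at 425, 446 and 457 CPM in Satb1 cKO, below every control (89.3% of control, log2 fold change -0.16, SE 0.038, adjusted p = 0.00505). Srebf1 (chromosome 11, 60199089 to 60222581), whose product mainly drives fatty acid genes and which is also an LXR target, stood at 118, 135 and 126 CPM in control and 115, 112 and 119 CPM in Satb1 cKO. The groups overlapped and it did not pass the test (log2 fold change -0.13, SE 0.053, adjusted p = 0.0666), though it did without control replicate 1 (-0.19, adjusted p = 0.00519).

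Insig1 (chromosome 5, 28071363 to 28078662), which holds SREBP in the endoplasmic reticulum and is induced by it, stood at 101, 95.9 and 97.7 CPM in control and 80.0, 80.3 and 82.8 CPM in Satb1 cKO. The groups did not overlap (82.6% of control, log2 fold change -0.28, SE 0.043, adjusted p = 0.000392). Stard4, a sterol transfer protein induced by SREBP-2, stood at 97.6, 99.0 and 96.9 CPM in control and 66.9, 66.9 and 63.6 CPM in Satb1 cKO. Its replicates were among the tightest of the 35 genes, and its fall to 67.2% of control had the smallest p of all of them (log2 fold change -0.57, SE 0.044, adjusted p = 2.18e-06).

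Of the 10 fatty acid genes, 3 fell, 1 rose and 6 did not pass the test. The share called was 40%, near the 42.3% of all tested genes. Their summed level, most of it from Fasn and Acly, was 98.1% of control. Acly, the ATP citrate lyase that supplies cytosolic acetyl-CoA to both sterols and fatty acids, stood at 428, 427 and 425 CPM in control and 394, 383 and 377 CPM in Satb1 cKO. Its fall was small but larger than the narrow spread within groups (90.2% of control, log2 fold change -0.15, SE 0.035, adjusted p = 0.00551). Acaca, the acetyl-CoA carboxylase that makes malonyl-CoA, had 145 ± 4.65 and 147 ± 9.78 CPM (SD, n = 3; 95% interval of the log2 fold change -0.09 to 0.14). Fasn, the fatty acid synthase, had 695 ± 23.3 and 734 ± 22.5 CPM and missed the threshold (95% interval -0.004 to 0.16, adjusted p = 0.117).

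Elongases went in opposite directions. Elovl6 (chromosome 3, 129532355 to 129638495), which lengthens palmitate towards stearate and is an SREBP target, stood at 37.8, 35.7 and 38.0 CPM in control and 22.1, 21.6 and 19.8 CPM in Satb1 cKO. It showed the largest fall of all 34 genes, to 56.9% of control (log2 fold change -0.81, SE 0.068, adjusted p = 4.05e-06). Elovl1 (chromosome 4, 118428093 to 118432953), which makes very long saturated chains used in sphingolipids, rose from 72.3, 63.8 and 61.2 CPM in control to 89.1, 84.9 and 79.4 CPM in Satb1 cKO. This was 128% of control (log2 fold change 0.36, SE 0.067, adjusted p = 0.00135).

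The ratio of Elovl1 to Elovl6 reads was 1.92, 1.79 and 1.61 in control and 4.04, 3.92 and 4.01 in Satb1 cKO. This pair, too, was chosen after its values were seen (exact two-sided permutation test, p = 0.1, the smallest possible here). Both genes separated the groups in opposite directions, so the choice of pair fixed this p as well. Elovl5, which lengthens polyunsaturated chains, had 105 ± 6.75 and 111 ± 0.402 CPM (SD, n = 3). Its groups did not overlap, as for 53.4% of all tested genes, but it did not pass the test (adjusted p = 0.244).

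Desaturases were represented mainly by Scd2 (chromosome 19, 44293674 to 44306864), a stearoyl-CoA desaturase. It stood at 123, 177 and 142 CPM in control and 121, 97.8 and 106 CPM in Satb1 cKO, with the highest Satb1 cKO library just under the lowest control (73.7% of control, log2 fold change -0.44, SE 0.114, adjusted p = 0.00951). Scd1, the liver form, had 38 reads in control and 34 in Satb1 cKO, with a 95% interval from -1.002 to 0.56, so no difference was detectable at this depth. Fads1 and Fads2, which desaturate polyunsaturated chains, had 30.6 ± 2.03 and 28.6 ± 1.44 CPM and 3.13 ± 0.351 and 3.47 ± 0.770 CPM (SD, n = 3), and neither passed the test.

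In the LXR arm both transporters fell, and the receptor gene did not pass the test. Nr1h2 (chromosome 7, 44549616 to 44553951), which encodes LXR beta, stood at 124, 129.8 and 131 CPM in control and 123, 132 and 134 CPM in Satb1 cKO. The groups overlapped (95% interval of the log2 fold change -0.09 to 0.12, adjusted p = 0.823). Abcg1 (chromosome 17, 31057675 to 31117988), which exports cholesterol to HDL particles and limits T cell proliferation, stood at 20.1, 28.1 and 30.6 CPM in control. In Satb1 cKO it stood at 15.5, 16.4 and 14.2 CPM, 58.6% of control (log2 fold change -0.76, SE 0.138, adjusted p = 0.0011). Control replicate 1 was well below the other controls, yet above every Satb1 cKO library.

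Abca1 (chromosome 4, 53030787 to 53159895), which exports cholesterol to lipid-poor apolipoproteins, was low in these cells, with 182 reads over the control libraries and 116 over Satb1 cKO. It stood at 3.15, 3.69 and 4.08 CPM in control and 2.10, 1.72 and 2.78 CPM in Satb1 cKO, without overlap (log2 fold change -0.72, SE 0.222, adjusted p = 0.0215). This call was lost without control replicate 2 or 3 (adjusted p = 0.0544 and 0.081), without Satb1 cKO replicate 1 or 2 (0.0577 and 0.0728), and in DESeq2 (0.0619).

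**Figure D3:**
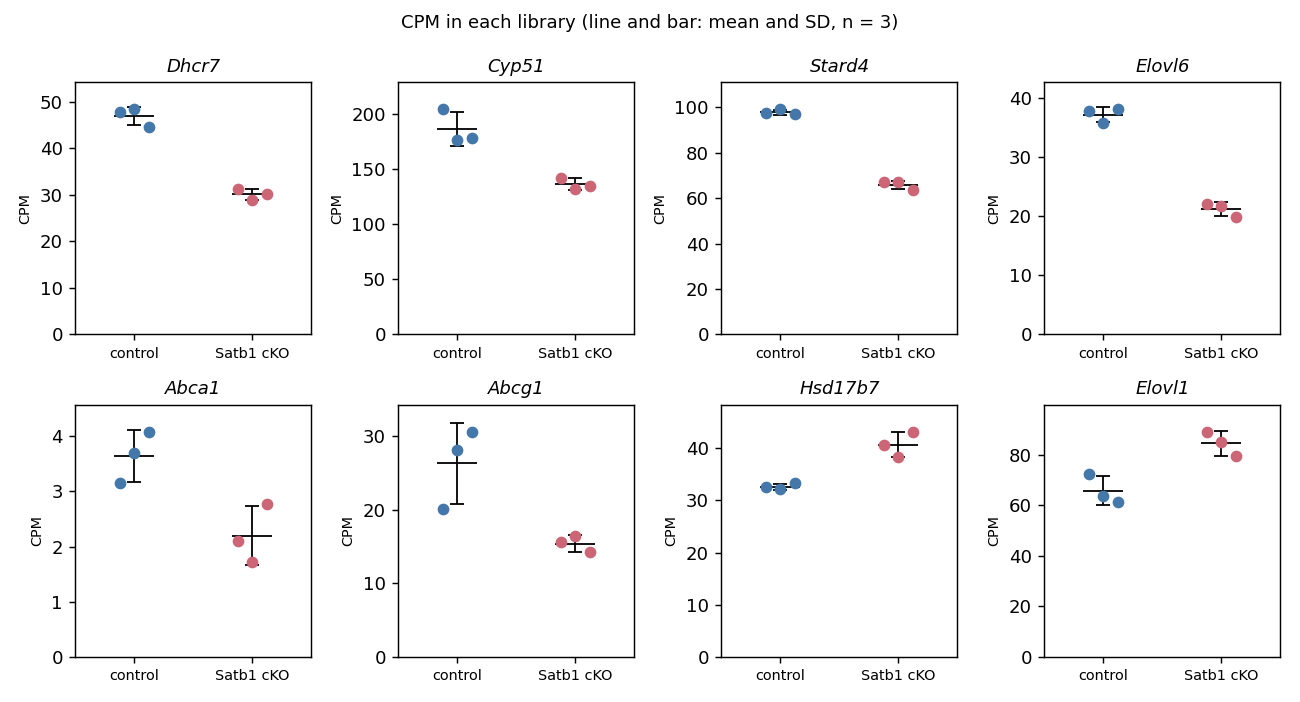
CPM in each library (points) with mean and SD (line and bars, n = 3) for the 6 largest falls and the 2 rises among the 34 tested genes; each axis starts at 0. In every panel the 3 control points and the 3 Satb1 cKO points do not overlap. The same holds for 53.4% of all tested genes, and these panels were picked by the size of their difference. Points of the groups come close for Elovl1 (highest control 72.3, lowest Satb1 cKO 79.4 CPM) and Abca1 (lowest control 3.15, highest Satb1 cKO 2.78 CPM).

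Synthesis and efflux were set against each other within each library. The summed level of Abca1 and Abcg1 was 23.3, 31.8 and 34.7 CPM in control and 17.6, 18.1 and 17.0 CPM in Satb1 cKO, 58.8% of control. Per 100 reads on cholesterol synthesis genes, the 2 transporters had 2.51, 3.64 and 4.04 reads in control and 2.22, 2.39 and 2.24 in Satb1 cKO. All 3 Satb1 cKO libraries were below the controls, with control replicate 1 close to them. Single genes separated the groups in one direction or the other in 53.4% of all tested genes, and this ratio was not tested.

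Other genes of these pathways, from 6 lists that exclude the 35, went both ways. The share called ran from 36.8% for fatty acid oxidation to 60% for further lipid synthesis genes, against 42.3% of all tested genes. For SREBP processing and control it was 40%. Of 11 tested further LXR targets and partners, 3 rose and 3 fell: the lipid droplet coat gene Plin2 went from 2.77 ± 0.743 to 10.9 ± 0.751 CPM (SD, n = 3) and Smpdl3a, a phosphodiesterase gene, from 14.99 ± 3.84 to 28.7 ± 2.03 CPM. Abcg2, a transporter of the same family as Abcg1, fell from 10.3 ± 1.63 to 4.64 ± 0.708 CPM. Of 10 genes of SREBP processing and control, 3 rose and 1 fell, all with small differences. Among those that rose, Sec23a, which encodes a coat protein of the vesicles that leave the endoplasmic reticulum, had a log2 fold change of 0.27, and Fbxw7, whose product marks nuclear SREBP for degradation, 0.20. Mbtps2, which encodes the protease that makes the second cut in SREBP, was the 1 that fell (-0.23) and is named outside the naming rule, after its value was seen.

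Of 20 tested further lipid synthesis genes, 6 rose and 6 fell. Hacd3, a dehydratase of the elongation cycle, went from 108 ± 3.68 to 159.5 ± 8.49 CPM, and the fatty acid binding protein gene Fabp5 from 39.7 ± 2.998 to 57.6 ± 2.65 CPM. Lpin1, a phosphatidate phosphatase, fell from 33.0 ± 1.69 to 22.5 ± 1.87 CPM. In the nonsterol branch that starts from farnesyl diphosphate, 4 of 14 genes rose and 4 fell, among them Fntb, a farnesyltransferase subunit (log2 fold change -0.60, SE 0.063), and Ggps1, which makes geranylgeranyl diphosphate (-0.36, SE 0.062). Nus1, a subunit of the enzyme that makes dolichol precursors, rose (0.26, SE 0.048).

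Of 11 tested sterol storage and transport genes, 4 fell and 1 rose. Npc2, which hands cholesterol out of lysosomes, fell from 277 ± 35.6 to 131 ± 3.09 CPM (log2 fold change -1.08, SE 0.078), a larger fitted fall than that of any of the 35 genes. Gramd1b, which brings cholesterol from the plasma membrane to the endoplasmic reticulum, fell from 419 ± 65.0 to 265 ± 16.6 CPM, and Osbpl9 fell by a log2 fold change of -0.31 (SE 0.046). Soat2, which encodes a sterol esterifying enzyme, went from 7.35 ± 0.401 to 12.8 ± 1.41 CPM, a rise that passed the test, and is named outside the naming rule, after its value was seen. Of 19 tested fatty acid oxidation genes, 4 rose and 3 fell, with Acaa2 (-0.71, SE 0.072) and Hadh (-0.36, SE 0.069) lower and Acadl (0.33, SE 0.062) higher. The median log2 fold changes of the 6 lists lay between -0.10 and 0.06.

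Relatives of the listed genes were also looked up after values had been seen. Idi2, the second isopentenyl isomerase gene, had 11 reads in control and 121 in Satb1 cKO (log2 fold change 3.37, SE 0.449, adjusted p = 0.000127). Fads6 fell from 19.2 ± 2.39 to 10.4 ± 0.444 CPM. Acat3, Scd3, Scd4, Elovl2, Elovl3 and Elovl4 had too few reads to be tested.

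Levels of different genes were compared per exon length, as CPM per kilobase of merged exons (RPKM). In control, Acly was highest at 80.8 ± 0.298, followed by Srebf2 at 69.0 ± 0.762 and Fasn at 63.5 ± 2.13 RPKM (SD, n = 3), and these 3 did not overlap in their SD. Cyp51 at 42.3 ± 3.53 and Nr1h2 at 38.3 ± 1.101 RPKM came next. In the middle of the order many neighbours did not differ beyond their spread, such as Hmgcs1, Srebf1 and Idi1 (23.2 ± 1.83, 22.4 ± 1.52 and 21.7 ± 2.43 RPKM). Abcg1, at 3.60 ± 0.749 RPKM, stood above Abca1 at 0.351 ± 0.045 RPKM. Scd2, at 26.9 ± 5.02 RPKM, stood far above Scd1 at 0.153 ± 0.031. In Satb1 cKO the same 3 genes led, with Fasn at 67.1 ± 2.06 above Srebf2 at 61.6 ± 2.29 RPKM. Dhcr7 moved from rank 23 to rank 27 of the 35 and Hsd17b7 from rank 26 to rank 22. Merged exons include rarely used ones, which lowers the values of genes with many annotated transcripts, such as Lss.

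**Figure D4:**
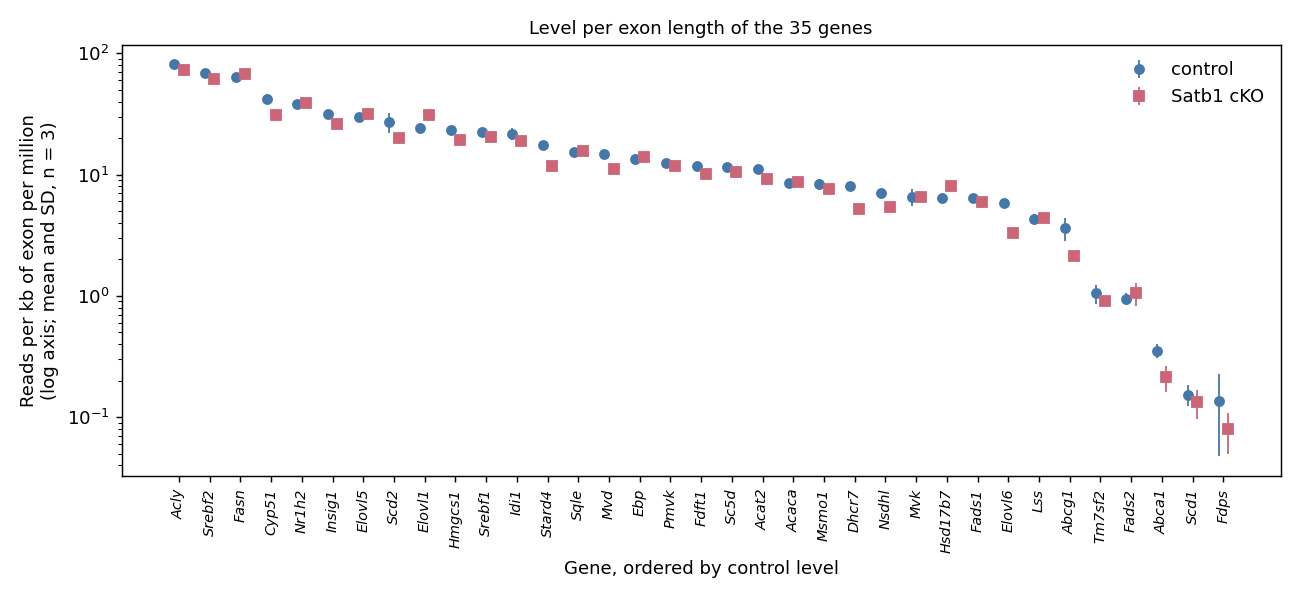
Level per exon length (reads per kilobase of merged exons and scaled to library size, log axis) of all 35 genes, ordered by the control level; circles are control and squares Satb1 cKO means, bars SD (n = 3). Levels run from 80.8 for Acly to 0.137 for Fdps in control, and the order is nearly the same in both groups.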

How the data were processed

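For each library the authors deposited raw counts, whole numbers of reads per Ensembl gene with no normalization. Per the submitters' processing notes, STAR 2.7.3a, HTSeq 0.12.4 and the build mm10 were used; the sources used here do not give the strand setting or annotation release. The 5 summary lines of each table were left out: no feature held 7.32 to 9.50%, ambiguous reads 5.40 to 5.57% and reads with several alignments 2.92 to 3.16% of each library. Symbols, exons and positions (1-based) came from GENCODE M21 (GRCm38), which matched 55141 of 55401 genes.

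Tests on the counts used edgeR 4.0.16 (R 4.3.3): filterByExpr (13364 genes kept), TMM scaling, and glmQLFit and glmQLFTest with group as the only term. All adjusted p-values are from this test, adjusted over all tested genes, unless another tool is named. SE was derived from the log2 fold change and its F statistic. CPM used TMM-scaled library sizes. No 2 libraries held the same values. Alternatives were RLE and upper-quartile scaling, DESeq2 1.42.0, no filter, a filter of 1 CPM in 3 libraries, a replicate block, a test against 1.2-fold, and leaving out each library. The script was tested on simulated data. The genes and the lists were chosen with earlier results of these data known. Named genes are all 35, up to 3 called genes of smallest p from each of 6 related lists, and Satb1; others are marked, and 1 gene the rule would name is not reported here. Values in every library are given for those of the 35 that were called and for the regulators and Nr1h2, and group means, reads or fold changes for other genes.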

Additional observations from a re-analysis of the deposited data

How the results depend on the processing

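RLE scaling and upper-quartile scaling kept all 19 calls among the 35 genes, as did a filter of at least 1 CPM in 3 libraries. The test against a fold change of 1.2 moved the counts most: 1222 genes were higher and 1121 lower among all tested, 0 of the 35 were higher and 5 lower, and of the 28 synthesis genes 0 were higher and 3 lower (1 of the 28 was higher at an unadjusted p under 0.05, and DESeq2 called 2). DESeq2 called 13 of the 35 lower, 4 fewer, without Acat2, Fdft1, Sc5d and Abca1. For Abca1, DESeq2 gave a log2 fold change of -0.73 (adjusted p = 0.0619), the test against 1.2-fold -0.72 (adjusted p = 0.0846), and leaving out 1 library -0.92 to -0.58. Without a low-count filter Sc5d lost its call (adjusted p = 0.0713) and Srebf1 gained one (adjusted p = 0.0252). Leaving out each library in turn, 13 to 16 of the 35 were lower and 2 higher, and 14 of the 19 calls held with each of the 6 left out; the exceptions are named beside their genes. No log2 fold change of a called gene changed sign in any setting.

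Same-numbered libraries of the 2 groups did not deviate together (correlations of 0.022, -0.013 and 0.028), so the numbers were not treated as pairs. With the replicate block, 15 of the 35 were lower and 2 higher, Idi1 and Sc5d losing their calls (adjusted p = 0.07 and 0.0591). Depth limits Abca1, Scd1, Fads2 and Tm7sf2, with at most 228 reads per group, and Fdps. Tm7sf2 also shares 12.1% of its exon bases with Vps51 on the same strand. Reads that touch both are counted for neither in HTSeq's usual mode, and the part of this in its low count was not tested.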
